A study of Mus musculus with 6 samples.

Results

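Neutrophils carry the products of 10 genes that were examined together here, in dental pulp of mice with and without matrix metalloproteinase 13 (MMP13), a collagenase. The genes were chosen by name for the step of neutrophil maturation at which they are made, with earlier results of these data known. All 10 were found among the 53342 genes of the expression table. Elane, Mpo, Prtn3 and Ctsg encode primary granule proteins, Ltf, Camp, Ngp and Lcn2 encode secondary granule proteins, and S100a8 and S100a9 encode the abundant cytosolic proteins of later cells. Pulp RNA was sequenced from 3 wild-type samples (WT, replicates 2, 4 and 5) and 3 Mmp13-/- samples (replicates 1, 2 and 6), all from C57BL/6 mice aged 3 months. The Mmp13-/- mice were homozygous for the deletion, which was not limited to a cell type in the labels or the methods, and both genotypes were male according to the methods. The sample labels name molars as the source of the pulp, in the titles for the WT samples only, and the methods name incisors. The tooth, and whether it was the same in both genotypes, thus remains uncertain. The labels call the samples of a genotype biological replicates, and no source used here states whether pulps of several mice were pooled for a sample.

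Neutrophils arise in bone marrow from dividing precursors, and their storage granules are filled in a fixed sequence. Promyelocytes make the primary (azurophil) granules, with serine proteases and myeloperoxidase. Myelocytes and metamyelocytes make the secondary (specific) granules, with iron-binding and antimicrobial proteins. Transcripts of S100a8 and S100a9 persist into band and segmented cells, while primary granule transcripts are largely shut off before a neutrophil enters the blood. Transcripts of the primary genes therefore mark immature cells, and the balance between the classes is a measure of maturation stage in a pure granulocyte population. Pulp is a mixed tissue, in which S100a8, S100a9 and Lcn2 can also come from monocytes or epithelium.

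The windows before and around the transcription start sites are printed for 5 members. These are Prtn3, which had the smallest change of the members, its neighbour Elane, and the neighbours S100a8 and S100a9, which had the largest changes. Ltf is added as the only member in which motifs of all 3 factor families searched were found. Sequences are from RefSeq on GRCm38.p6, run from 250 bases before the start to 50 bases after it, and are written 5′ to 3′ on the strand of the gene. All 10 members were matched by symbol. Capitals mark the motifs GAGGAA (PU.1), TTGCNNAA (C/EBP) and TGTGGT (RUNX), searched on both strands, so that their reverse complements are also in capitals. No matched motifs overlapped each other in these members.
Prtn3 (chr10:79879417-79879716, + strand): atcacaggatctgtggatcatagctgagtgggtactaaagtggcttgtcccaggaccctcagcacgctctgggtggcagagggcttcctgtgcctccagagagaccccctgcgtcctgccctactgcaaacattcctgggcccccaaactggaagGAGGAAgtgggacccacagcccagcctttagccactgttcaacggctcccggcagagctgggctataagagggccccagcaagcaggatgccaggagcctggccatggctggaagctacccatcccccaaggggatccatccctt
Elane (chr10:79886062-79886361, + strand): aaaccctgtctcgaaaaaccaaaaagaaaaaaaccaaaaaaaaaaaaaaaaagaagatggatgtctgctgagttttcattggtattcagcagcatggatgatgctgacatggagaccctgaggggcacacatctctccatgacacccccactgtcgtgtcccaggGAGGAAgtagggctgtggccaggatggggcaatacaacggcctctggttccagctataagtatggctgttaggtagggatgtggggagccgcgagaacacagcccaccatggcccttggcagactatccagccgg
Ltf (chr9:111019042-111019341, + strand): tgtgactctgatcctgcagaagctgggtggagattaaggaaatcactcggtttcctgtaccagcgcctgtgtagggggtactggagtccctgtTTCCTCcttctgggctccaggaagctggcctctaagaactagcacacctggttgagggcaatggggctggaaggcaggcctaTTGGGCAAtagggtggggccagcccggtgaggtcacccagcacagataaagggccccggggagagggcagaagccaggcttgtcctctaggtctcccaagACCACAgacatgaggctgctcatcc
S100a8 (chr3:90668821-90669120, + strand): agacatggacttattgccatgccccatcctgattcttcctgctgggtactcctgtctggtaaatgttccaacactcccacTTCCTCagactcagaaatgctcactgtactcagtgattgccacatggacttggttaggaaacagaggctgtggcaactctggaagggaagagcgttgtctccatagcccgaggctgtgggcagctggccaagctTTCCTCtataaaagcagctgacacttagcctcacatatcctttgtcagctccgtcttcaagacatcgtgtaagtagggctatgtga
S100a9 (chr3:90695672-90695971, - strand): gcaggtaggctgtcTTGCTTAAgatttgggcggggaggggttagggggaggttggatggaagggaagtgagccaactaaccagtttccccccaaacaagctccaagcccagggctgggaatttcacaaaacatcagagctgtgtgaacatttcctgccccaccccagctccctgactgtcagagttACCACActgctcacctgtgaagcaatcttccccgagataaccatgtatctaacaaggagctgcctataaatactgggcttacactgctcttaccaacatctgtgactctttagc

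PU.1 is the factor that commits cells to the myeloid lineage, C/EBP factors drive granulocyte maturation, and RUNX factors act with both. The letters GAGGAA were found in 7 of the 10 member windows, namely all 4 primary genes, Ltf, Lcn2 and S100a8, and in 28.1% of the 32544 RefSeq windows of the same length. The letters TTGCNNAA were found in 4 members, Ltf, Ngp, Lcn2 and S100a9, none of them a primary gene, and in 10.8% of all windows. TGTGGT was present in 3 members, Ctsg, Ltf and S100a9, and in 16.7% of all windows. Both GAGGAA and TTGCNNAA occurred in Ltf and Lcn2 and in 2.92% of all windows. In Elane and Prtn3 the GAGGAA match began 85 and 95 bases before the start, and no motif of the 3 was found in the window of Camp. These matches describe the letters in the windows and were not measured as bound sites.

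Positions of the genes on GRCm38 (GENCODE M21) also bear on how their reads could be counted. Prtn3 (chr10:79874476-79883174, + strand) and Elane (chr10:79886247-79888215, + strand) lie 3073 bp apart, and S100a8 (chr3:90668978-90670035, + strand) and S100a9 (chr3:90692632-90695721, - strand) lie 22597 bp apart. Ltf (chr9:111019271-111042767, + strand), Ngp (chr9:110419747-110423012, + strand) and Camp (chr9:109847379-109849617, - strand) share chromosome 9 with each other. Mpo lies at chr11:87793581-87804413 (+ strand), Ctsg at chr14:56099881-56102574 (- strand) and Lcn2 at chr2:32384633-32388252 (- strand). Exons of Prtn3 share 159 bases with Plppr3 on the opposite strand, and exons of Mpo share 512 bases with the antisense gene Gm11505. Whether counting used strand is not given in the sources used here, so reads over the shared bases cannot be assigned to a gene of the pair. The exons of Prtn3 span 1732 bases and those of Mpo 3424. The counts of the other 8 members carry no such overlap.

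Libraries held 28442936 to 29980236 counts in WT and 21561420 to 26547121 in Mmp13-/-. Mmp13-/- sample 6 stood apart from its group. Its 10 most abundant genes took 53.67% of the counts, against 22.61 to 27.21% in the other 5 samples. Counts over 1456 odorant and vomeronasal receptor genes, which pulp is not known to use and which serve here as a measure of background reads, reached 1199 CPM (counts scaled to the library total) in that sample, 307.9 and 356.3 in the other Mmp13-/- samples and 17.81 to 20.81 in WT. Mmp13, the targeted gene, had 997, 1058 and 816 normalized counts across WT samples 2, 4 and 5, against 8.74, 29.7 and 63.2 in Mmp13-/- samples 1, 2 and 6. It was lower in every Mmp13-/- sample, with a log2 fold change of -4.96 (SE 0.46, adjusted p = 7.675e-05 by the quasi-likelihood test of edgeR, adjusted by Benjamini-Hochberg), as the labels state. Which exons the deletion removes was not examined, so the remaining counts check the labels only in part.

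All members passed the filter on low counts, and 9 of the 10 rose in Mmp13-/- pulp, by very unequal amounts. S100a8 and S100a9 rose 29.8- and 36.4-fold, the secondary granule genes 2.36- to 7.58-fold and the primary granule genes Elane, Mpo and Ctsg 2.34- to 9.93-fold, while Prtn3 did not pass the test. A call needed an adjusted p under 0.05 and a change over 2-fold, and no member had a negative change. Among all 24534 genes tested, 20.4% were called higher and 9.68% lower, 30.1% in either direction. The same 9 members had every Mmp13-/- sample above every WT sample, which was true of 31.8% of all genes tested. Because these are bulk samples, more neutrophils in the tissue and more of these transcripts per cell cannot be told apart.

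**Figure D1:**
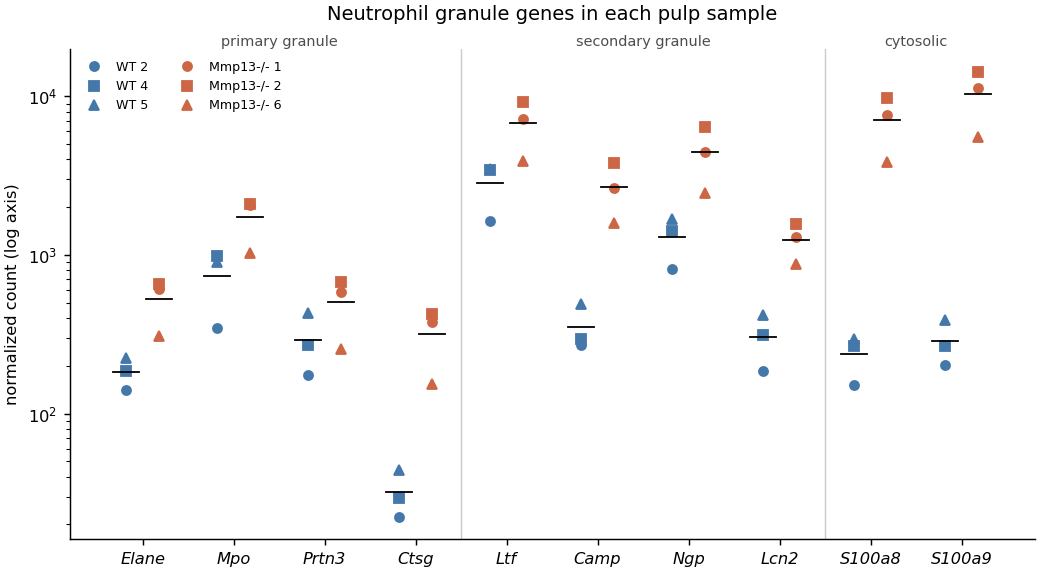
Normalized counts (log axis) of the 10 members in each sample, with blue for WT and orange for Mmp13-/-, a marker shape for each replicate and a black line at the mean of 3 samples. The symbols of the genotypes overlap for Prtn3 alone, and Mmp13-/- sample 6 (orange triangle) is the lowest of its group for every member.

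Elane encodes neutrophil elastase, a serine protease of the primary granule. It had 141, 184 and 224 normalized counts across WT samples 2, 4 and 5, against 609.5, 652 and 310.2 in Mmp13-/- samples 1, 2 and 6. All Mmp13-/- samples were above all WT samples, with sample 6 closest to the WT range. The log2 fold change was 1.53 (SE 0.28, adjusted p = 0.00158 by edgeR's quasi-likelihood test, with the Benjamini-Hochberg adjustment that holds for all adjusted p-values here).

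Mpo, which encodes myeloperoxidase, the enzyme that makes hypochlorous acid, had 344, 978 and 898 normalized counts in WT samples 2, 4 and 5. In Mmp13-/- samples 1, 2 and 6 it had 2062, 2105 and 1029. Genotypes were just apart, since the lowest Mmp13-/- value was 1.05 times the highest WT value. Mpo rose with a log2 fold change of 1.23 (SE 0.37, adjusted p = 0.0197 by edgeR). This call was lost with DESeq2 (log2 fold change 1.19, adjusted p = 0.0693), with limma (1.24, adjusted p = 0.153) and when WT sample 2 was left out, where the change of 0.82 was under 2-fold. The antisense gene Gm11505, named here for its overlap with Mpo, had 47.8, 97.6 and 119.6 normalized counts in WT and 170.3, 201 and 113 in Mmp13-/-.

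Prtn3 encodes proteinase 3, a protease closely related to elastase. Normalized counts were 176, 272 and 427 across WT samples 2, 4 and 5, against 584, 671 and 253 in Mmp13-/- samples 1, 2 and 6. The genotypes overlapped, since Mmp13-/- sample 6 lay below WT samples 4 and 5. Its log2 fold change of 0.80 (SE 0.37, adjusted p = 0.0977 by edgeR) did not pass the test. Prtn3 was called when Mmp13-/- sample 6 was left out (1.11, adjusted p = 0.0174) and when WT sample 5 was left out (1.11, adjusted p = 0.0341). Plppr3, named for the exon bases it shares with Prtn3, was lower in Mmp13-/-, with 749, 674 and 623 normalized counts in WT and 282, 326 and 293 in Mmp13-/- (log2 fold change -1.18, SE 0.14, adjusted p = 0.000202 by edgeR).

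Ctsg encodes cathepsin G, a chymotrypsin-like protease of the same granule. It was the scarcest member in WT, with 22.4, 29.6 and 44.4 normalized counts in samples 2, 4 and 5, and reached 378, 421 and 153 in Mmp13-/- samples 1, 2 and 6. The lowest Mmp13-/- sample was 3.45 times the highest WT sample. Its log2 fold change of 3.31 (SE 0.40, adjusted p = 0.000188 by edgeR) was the largest among the primary genes, which otherwise lay between 0.80 and 1.53.

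Ltf encodes lactoferrin, the iron-binding protein by which secondary granules are defined. It had 1645, 3445 and 3485 normalized counts across WT samples 2, 4 and 5, against 7184, 9193 and 3882 in Mmp13-/- samples 1, 2 and 6. The groups were apart by a narrow margin, with Mmp13-/- sample 6 at 1.11 times the highest WT sample. Ltf rose with a log2 fold change of 1.24 (SE 0.35, adjusted p = 0.0135 by edgeR), the smallest of the secondary genes. The call was lost with limma (1.17, adjusted p = 0.132), without WT sample 2 (0.89, adjusted p = 0.0516) and without Mmp13-/- sample 2, where the change of 0.90 (adjusted p = 0.0416) was under 2-fold.

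Camp encodes the antimicrobial cathelicidin, stored in secondary granules as a proprotein. Its normalized counts were 269.6, 296 and 492 across WT samples 2, 4 and 5, against 2641, 3769.7 and 1585 in Mmp13-/- samples 1, 2 and 6. Every Mmp13-/- sample was at least 3.22 times the highest WT sample. The log2 fold change was 2.92 (SE 0.33, adjusted p = 0.000157 by edgeR), the largest among the secondary genes.

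Ngp encodes neutrophilic granule protein, a cystatin-related protein of secondary granules in rodents. WT samples 2, 4 and 5 had 809, 1416 and 1673 normalized counts and Mmp13-/- samples 1, 2 and 6 had 4484, 6371 and 2439. Again the genotypes were apart and sample 6 was the lowest of the Mmp13-/- group. Ngp rose with a log2 fold change of 1.77 (SE 0.35, adjusted p = 0.00239 by edgeR), a call that limma did not give (1.67, adjusted p = 0.0542).

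Lcn2 encodes lipocalin 2, which withholds iron from bacteria by binding their siderophores. It had 186, 313 and 416 normalized counts across WT samples 2, 4 and 5, against 1301, 1557 and 879.8 in Mmp13-/- samples 1, 2 and 6. The lowest Mmp13-/- sample was 2.11 times the highest WT sample. Lcn2 rose with a log2 fold change of 2.03 (SE 0.29, adjusted p = 0.000443 by edgeR) and was called under each of the 17 alternatives run.

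S100a8 and S100a9 encode the subunits of calprotectin, a calcium- and zinc-binding heterodimer that makes up much of the neutrophil cytosol. S100a8 had 152, 265 and 294 normalized counts across WT samples 2, 4 and 5, against 7616, 9759.7 and 3854 in Mmp13-/- samples 1, 2 and 6. S100a9 had 203, 268 and 387 in the WT samples and 11353, 14308 and 5545 in the Mmp13-/- samples. The genotypes were far apart for both, the lowest Mmp13-/- value being 13.1 times the highest WT value for S100a8 and 14.3 times for S100a9. The log2 fold change was 4.90 for S100a8 (SE 0.39, adjusted p = 4.357e-05 by edgeR). It was 5.19 for S100a9 (SE 0.40, adjusted p = 3.956e-05 by edgeR). These SEs do not measure the difference between the neighbouring genes, whose ratio within samples is given below. S100a9 also stands on a list that the study drew from these same samples, so its rise is not independent evidence for that list.

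By class, the median log2 fold change was 1.38 for the 4 primary genes, 1.90 for the 4 secondary genes and 5.04 for the 2 cytosolic genes, beside 0.10 for all genes tested. The primary genes ranged from 0.80 to 3.31 and the secondary genes from 1.24 to 2.92, so these classes overlapped in their changes, and Ctsg exceeded all 4 secondary genes. Both cytosolic genes lay above every granule gene. In the order of all 24534 genes by log2 fold change, S100a9 stood at place 585, S100a8 at 650, Ctsg at 1257 and Camp at 1532, whereas Mpo stood at 4956 and Prtn3 at 7061.

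Transcript GC content differed between members with small and with the largest changes, but the relation did not hold throughout. Prtn3, Elane and Mpo had the most GC-rich exons of the members (60.7, 57.4 and 56.4%) and small changes, while S100a9 and S100a8 had the least (45.1 and 44.2%) and the largest changes. Ctsg and Ltf, by contrast, had nearly equal GC content (51.5 and 51.0%) and log2 fold changes of 3.31 and 1.24. Among the secondary genes the order was reversed. Camp and Lcn2 (54.2 and 54.4%) had larger changes (2.92 and 2.03) than Ngp (50.2%, 1.77) and Ltf. For a GC correction, a smooth trend on GC content of each gene's log2 CPM less its mean was fitted in each sample. The edgeR fit was then repeated with these trends as offsets. The medians became 2.32 for the primary, 2.47 for the secondary and 4.85 for the cytosolic genes. Prtn3 then rose with a log2 fold change of 1.97 (adjusted p = 0.00483 by edgeR), and all 10 members were called higher, beside 17.9% of all genes. The gap between the granule classes was thus smaller after that correction, and the gap to S100a8 and S100a9 persisted. Subtracting the background read rate gave medians of 1.51, 2.04 and 5.19 and the same number of calls, 9, beside 16.2% of all genes. Background reads made up at most 5.12% of a member's count in a sample, reached for Prtn3 in Mmp13-/- sample 6. Upper-quartile factors moved the median of all genes by 0.21 and total-count scaling by 0.11 on the log2 scale, and all members kept a positive change under both. Of all calls, 67.8% were higher, a share that became 81.4% with upper-quartile factors and 89.0% with the GC correction.

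**Figure D2:**
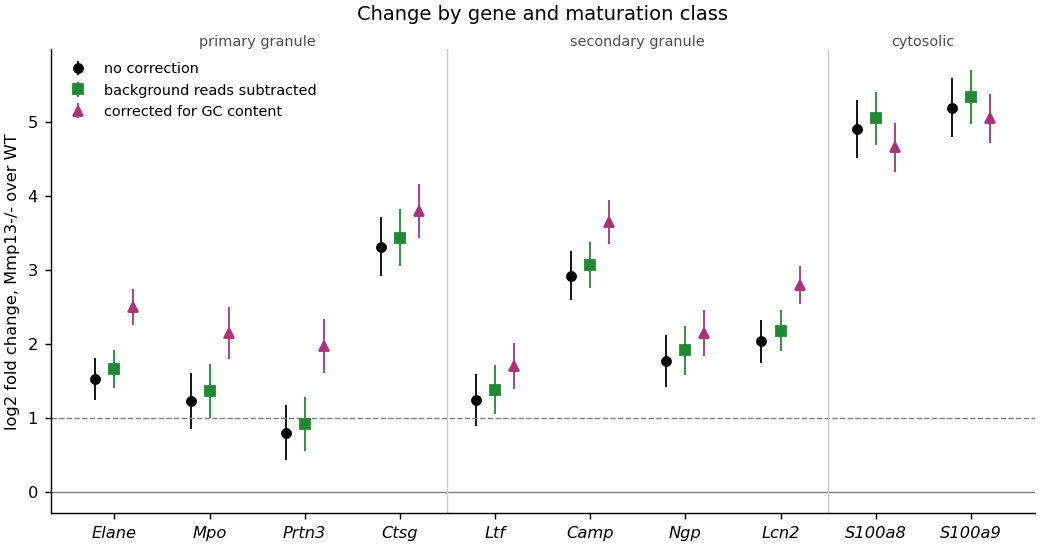
Log2 fold change of Mmp13-/- over WT for each member (points) with its standard error (bars). Values are shown without correction, with background reads subtracted and with the GC trend of each sample removed. The dashed line marks 2-fold, and the GC correction raised every granule gene and slightly lowered S100a8 and S100a9.

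Levels were compared between genes as CPM per kilobase of exon, with the union of all annotated exons of a gene as its length. In WT pulp the order of mean levels was Ngp, Ltf, S100a9, Camp, S100a8, Mpo, Elane, Prtn3, Lcn2 and Ctsg. Ngp stood at 39.2 ± 13.4 (SD, n = 3), S100a9 at 20.2 ± 6.57, Mpo at 7.98 ± 3.72 and Ctsg at 1.15 ± 0.40. Neighbours in this order overlapped in their ranges over samples at every step except that from Lcn2 (4.29 ± 1.62) to Ctsg. Within single samples, however, Ngp, Ltf, S100a9, Camp and S100a8 each stood above the next gene in all 3 WT samples. The secondary granule genes Ngp and Ltf thus headed the order in every WT sample, although their ranges overlapped those of the next gene. Lcn2, of the same class, was near the end. Its union of exons was 2623 bases, and its place in this order depends on that length.

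In Mmp13-/- pulp the order of these length-scaled levels was S100a9, S100a8, Ngp, Camp, Ltf, Elane, Mpo, Lcn2, Ctsg and Prtn3. S100a9 reached 735 ± 315 and S100a8 376 ± 159, and these neighbours overlapped. S100a8 was above Ngp (134 ± 59.4) without overlap, and Ltf (72.2 ± 28.7) above Elane (19.65 ± 6.99) without overlap, which set off S100a8 and S100a9, then Ngp, Camp and Ltf, then the rest. The other neighbours overlapped in their ranges. Within single samples each gene stood above the next in all 3, except Ngp over Camp and Mpo over Lcn2, which held in 2. Ctsg moved from last place to just above Prtn3, at 11.3 ± 5.14 against 10.7 ± 4.70.

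**Figure D3:**
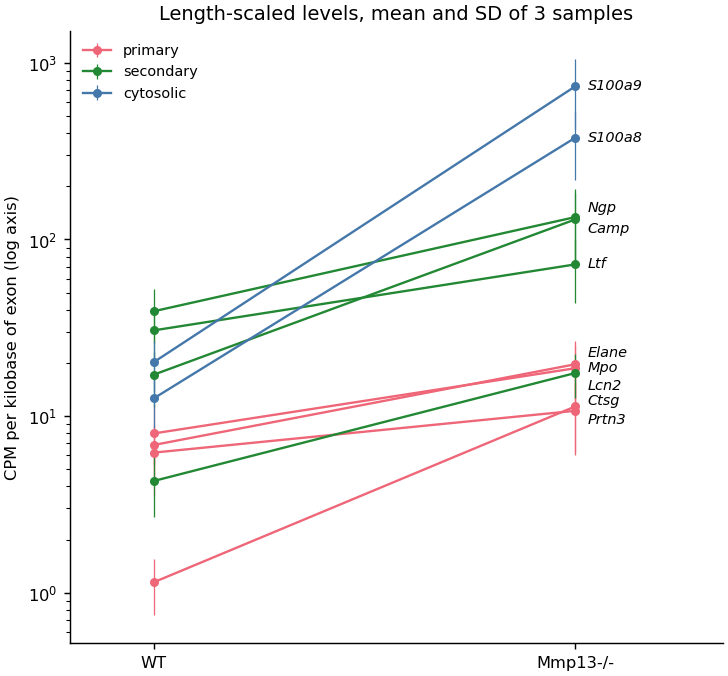
Length-scaled levels (CPM per kilobase of exon, log axis) of the members in WT and Mmp13-/- pulp, with points at the mean of 3 samples, bars for the SD and a line joining the genotypes for each gene. S100a9 lies below Ngp and Ltf in WT and S100a8 below Ngp, Ltf and Camp, and both lie above all 4 secondary granule genes in Mmp13-/-, while Ctsg shows the steepest line among the primary genes.

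Ratios of members within a sample do not depend on library scaling. The summed normalized counts of the primary genes relative to the secondary genes, as log2, were -2.09, -1.90 and -1.93 across WT samples 2, 4 and 5, against -2.10, -2.44 and -2.33 in Mmp13-/- samples 1, 2 and 6. Every Mmp13-/- sample was lower, but Mmp13-/- sample 1 and WT sample 2 differed by little. The difference of means was -0.32, with 3 samples in each genotype, for which an exact permutation test cannot go below a two-sided p of 0.1. The ratio of sums was not recomputed with the GC correction, for which another measure is given. The mean log2 fold change of the primary genes less that of the secondary genes was -0.28 without the correction and 0.03 with it.

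The cytosolic genes shifted far more against both granule classes. Relative to the secondary genes, S100a8 and S100a9 stood at -3.03, -3.36 and -3.16 (log2) across WT samples 2, 4 and 5, against at 0.28, 0.20 and 0.10 in Mmp13-/- samples 1, 2 and 6. Relative to the primary genes they stood at -0.94, -1.46 and -1.23 in WT, against 2.38, 2.65 and 2.43 in Mmp13-/-. Differences of means were 3.38 and 3.70, many times the SD within a genotype, which was at most 0.26.

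Within the classes, ratios were computed for a chosen part of the pairs, and most of these differed between the genotypes without overlap. Pairs left out were not examined for overlap. Among the computed ratios Mpo to Elane overlapped, at 2.44, 5.31 and 4.02 in WT and 3.38, 3.23 and 3.32 in Mmp13-/-. Its WT values were too spread to show a kept proportion. Prtn3 to Elane fell from 1.25, 1.47 and 1.91 in WT to 0.96, 1.03 and 0.82, although the genes lie side by side. Ctsg to Elane went the other way, from 0.16, 0.16 and 0.20 to 0.62, 0.65 and 0.49. Among the secondary genes, Camp to Ltf was 0.16, 0.09 and 0.14 in WT and 0.37, 0.41 and 0.41 in Mmp13-/-. Ngp to Ltf was 0.49, 0.41 and 0.48 in WT and 0.62, 0.69 and 0.63 in Mmp13-/-. S100a9 to S100a8 was 1.34, 1.01 and 1.31 in WT, against 1.49, 1.47 and 1.44 in Mmp13-/-, the smallest relative shift of any computed ratio without overlap. These ratios are descriptions of 3 samples per genotype and were not tested.

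**Figure D4:**
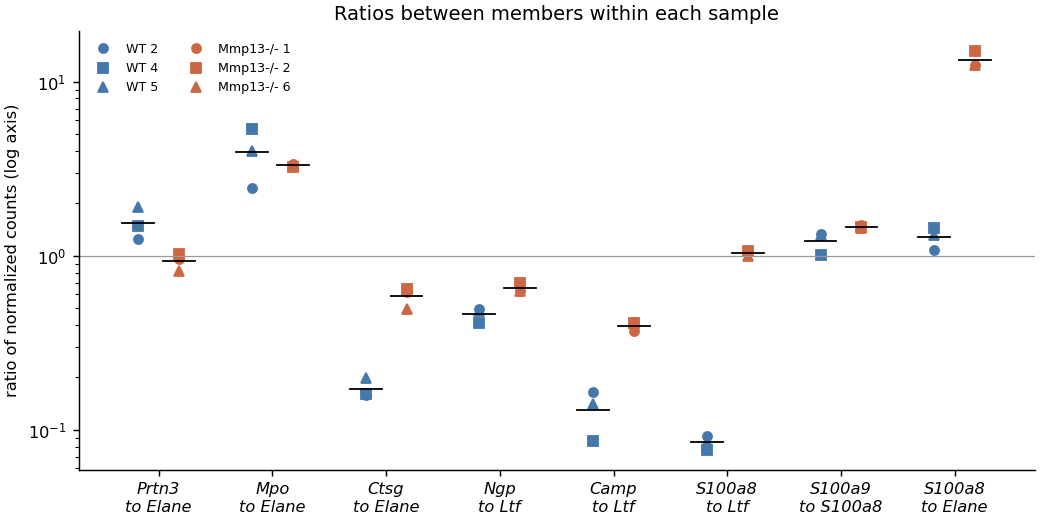
Ratio of normalized counts between pairs of members in each sample (log axis), with blue for WT, orange for Mmp13-/- and a black line at the mean of 3 samples. S100a8 relative to Ltf and to Elane moves over 10-fold, while Mpo relative to Elane overlaps between the genotypes.

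Within a genotype the members moved together. WT sample 2 was the lowest WT sample for all 10 members, with a median deviation from its genotype mean of -0.60 on the log2 scale. Mmp13-/- sample 6 was the lowest and Mmp13-/- sample 2 the highest of their genotype for all 10, at -0.73 and 0.54. The members together took 0.0141, 0.0270 and 0.0297% of the counts across WT samples 2, 4 and 5, against 0.169, 0.204 and 0.0591% in Mmp13-/- samples 1, 2 and 6. Sample 6 is the library with the highest background rate and with over 50% of counts in 10 genes, and its part in the low member values was not tested. Without it the log2 fold changes of the members other than Lcn2 were the highest of the 6 fits that each leave out a sample, at 5.49 for S100a9 and 1.11 for Prtn3, and all 10 members were called. Without WT sample 2 the number called was 7.

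Other genes of the same maturation steps, on lists written with earlier results of these data known, included risers and, unlike the members, genes with a negative change. Of 8 other primary granule or promyelocyte genes tested, 5 were called higher, beside 20.4% of all genes. Their median log2 fold change was 1.90. Ms4a3, a surface marker of committed granulocyte and monocyte precursors, had 5.64, 13.5 and 15.2 normalized counts in WT and 176, 207 and 100.1 in Mmp13-/- (log2 fold change 3.82, SE 0.40, adjusted p = 0.000123 by edgeR). Fcnb, the ficolin of immature myeloid cells, rose by 2.41 and the elastase inhibitor Serpinb1a by 2.06 on the log2 scale. Ctsc, the protease that activates the primary granule proteases, had a log2 fold change of -0.04 (adjusted p = 0.849 by edgeR), and Prss57, another protease of that granule, one of -0.35 (adjusted p = 0.162). Neither was called here or in the alternatives that follow. Ctsc stood at 0.16 with upper-quartile factors and at -0.58 (adjusted p = 0.00542 by edgeR) with the GC correction, and Prss57 turned to 0.38 with the GC correction. Lyz2, which macrophages also express, rose by 3.04. Cd63, a granule membrane protein of many cell types, reached an adjusted p of 0.00994 by edgeR but stayed under 2-fold, at 0.66, and was called with the GC correction (1.70, adjusted p = 0.000414).

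Of 12 other secondary and tertiary granule genes, 8 were called higher (median 1.20), beside 20.4% of all genes. The count was 5 without WT sample 2, 5 without Mmp13-/- sample 2, 4 with limma and 10 with the GC correction. Mmp8, the neutrophil collagenase, had 75.7, 94.2 and 110.1 normalized counts in WT and 694, 816 and 601 in Mmp13-/- (log2 fold change 2.92, SE 0.20, adjusted p = 2.082e-05 by edgeR). Chil3, a chitinase-like protein of neutrophils and macrophages, rose by 4.46, and Cybb, a subunit of the phagocyte oxidase, rose by 2.60. Cd177, a neutrophil surface and granule protein, rose by 1.12 although WT sample 5 and Mmp13-/- sample 6 overlapped. Mmp9, the gelatinase of tertiary granules that osteoclasts also make, had a log2 fold change of 0.52 (adjusted p = 0.0738 by edgeR) and was called with the GC correction (1.36, adjusted p = 0.00122). Slc11a1, a metal transporter of phagocytes named after its value was seen, was the gene of the list furthest below 0, at -0.63 (adjusted p = 0.0158), and turned to 0.21 with the GC correction.

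Of 19 late or surface genes of mature neutrophils, 14 were called higher (median 1.92), beside 20.4% of all genes. Ly6g, the surface antigen that defines mouse neutrophils, was scarce in WT with 9.33, 11.2 and 21.7 normalized counts and reached 147, 163 and 93.2 in Mmp13-/- (log2 fold change 3.26, SE 0.37, adjusted p = 0.00016 by edgeR). Retnlg, a resistin-like protein of mature neutrophils, rose by 1.92 and the chemokine receptor Cxcr2 by 1.28. Csf3r, the receptor for granulocyte colony-stimulating factor, had a log2 fold change of 0.83 (adjusted p = 0.0252 by edgeR), under 2-fold and with overlapping samples. It was called with upper-quartile factors (1.02, adjusted p = 0.00886 by edgeR) and with the GC correction (1.56, adjusted p = 0.00165). Mxd1, a repressor that is abundant in mature neutrophils and also used by other cells, had a log2 fold change of -0.28 (adjusted p = 0.258 by edgeR), which turned to 0.15 with the GC correction.

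Of 8 transcription factors of granulocytes, 2 were called higher and 2 lower, beside 20.4% and 9.68% of all genes. These counts were unstable. With the GC correction 4 were called higher and 0 lower, and 1 was called higher without WT sample 2, WT sample 4 or Mmp13-/- sample 2. Without WT sample 4 or WT sample 5, 1 was called lower. Cebpe, needed for secondary granules, had 37.4, 67.4 and 93.0 normalized counts in WT and 145, 223 and 98.3 in Mmp13-/- (log2 fold change 1.25, SE 0.37, adjusted p = 0.0172 by edgeR). Myb, a factor of dividing precursors, rose by 1.78. Cebpb and Cebpd, which many tissues express, had log2 fold changes of -1.75 and -1.06 and were the genes called lower. With the GC correction neither was called (-0.47 and -0.50), and Cebpd was under 2-fold with upper-quartile factors as well (-0.84). Cebpa, which starts the granulocyte program and is also used outside blood, had a log2 fold change of -0.87 (adjusted p = 0.00627 by edgeR), which turned to 0.40 with the GC correction. Gfi1, a repressor of the monocyte program, reached an adjusted p of 0.0145 by edgeR at 0.91, under 2-fold, and was called with upper-quartile factors (1.12, adjusted p = 0.0086) and with the GC correction (1.91, adjusted p = 0.00176). Spi1, which encodes PU.1 and was named after its values were seen, stood at 0.52 (adjusted p = 0.109 by edgeR) and was called with the GC correction (1.61, adjusted p = 0.00175). Runx1 reached an adjusted p of 0.0348 by edgeR at -0.43.

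Signals that draw or feed neutrophils gave 1 call among 7 genes tested, beside 20.4% of all genes called higher. This count is not read as a result about the list. Cxcl1 and Cxcl2, ligands of Cxcr2, had log2 fold changes of -0.74 (adjusted p = 0.231 by edgeR) and 0.10 (adjusted p = 0.873), and Csf3, granulocyte colony-stimulating factor, had -0.09 (adjusted p = 0.899). Csf3 counts were low, at 9.03 to 23.5 normalized counts in the 6 samples, so a modest difference was not detectable at this depth. Cxcl5 stood at 0.38 (adjusted p = 0.42 by edgeR). Il1a, an epithelial and macrophage cytokine, was the gene called, at 1.17. No gene of the list was called higher with the GC correction, without WT sample 4 or without WT sample 5, and without WT sample 2 there was 1 gene called lower. Il6 and Il17a were too scarce to be tested.

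Summed marker levels of other blood and bone cells were higher in the same samples, and the part of those cells in the change of the granule genes was not tested. The counts of markers called higher stand beside 20.4% of all genes tested. Small counts, such as 2 of 5 or 2 of 6, are not read as a result beside that share. Of the eosinophil markers, 9 of 9 were called higher, and their summed length-scaled level was 3.10 to 7.35 in WT and 43.0 to 288 in Mmp13-/-. Epx, eosinophil peroxidase, rose by 3.27 and Prg2, major basic protein, by 4.75 on the log2 scale. Of the B cell and B precursor markers, 10 of 11 were called higher (summed level 7.41 to 10.1 in WT and 21.4 to 29.1 in Mmp13-/-), with Cd79a, a subunit of the B cell receptor, at 1.27 and Vpreb1, part of the surrogate light chain of bone marrow precursors, at 1.93. Erythroid markers gave 5 of 9, with Alas2, the erythroid enzyme of heme synthesis, at 1.80 and sums of 1165 to 1870 in WT and 2714 to 5062 in Mmp13-/-. Osteoclast markers gave 6 of 6, with sums of 42.7 to 44.3 in WT and 152 to 278 in Mmp13-/-. T cell markers gave 4 of 6 (1.03 to 1.55 against 3.78 to 4.47), platelet markers 4 of 7 (22.2 to 31.4 against 56.0 to 79.2) and mast cell markers 2 of 5 (1.41 to 1.56 against 3.85 to 4.73). Stem and progenitor markers gave 2 of 6 (11.3 to 12.9 against 15.9 to 16.8), and proliferation markers 7 of 10 (22.9 to 29.1 against 54.1 to 86.0). Of these counts, that of T cell markers was 2 without WT sample 2 or Mmp13-/- sample 6, and that of progenitor markers was 1 without WT sample 2, WT sample 5 or Mmp13-/- sample 6. With the GC correction, erythroid markers gave 9 of 9 and mast cell markers 5 of 5. No listed marker was at 0 in all 6 samples.

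Monocytes also express S100a8, S100a9, Lyz2 and Chil3. Of 11 monocyte and macrophage markers tested, 6 were called higher, beside 20.4% of all genes. Their median log2 fold change was 1.08, and their summed length-scaled level was 63.0 to 75.2 in WT and 84.9 to 115 in Mmp13-/-. Csf1r, the receptor that defines the lineage, had 1349, 1411 and 1298 normalized counts in WT and 1649, 2302 and 1556 in Mmp13-/- (log2 fold change 0.44, SE 0.17, adjusted p = 0.051 by edgeR). F13a1 and Mrc1, abundant in tissue macrophages and F13a1 also in monocytes, rose by 2.50 and 1.76 on the log2 scale. Ccr2 and Ly6c2, which mark inflammatory monocytes and were named after their values were seen, rose by 3.77 and 2.27. Ccr2 had 33.6, 18.6 and 45.6 normalized counts in WT, against 475, 537 and 312 in Mmp13-/-. The complement genes C1qa and C1qc of resident macrophages, named likewise, were not called, C1qc at -0.19. The summed marker level was thus apart between the genotypes, and the part of monocytes in the rise of S100a8 and S100a9 was not tested.

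Resident tissue was checked in the same way. Dspp, the odontoblast product that defines dentin-forming pulp, was present in every sample, at 14160 to 44470 normalized counts in WT and 42450 to 65440 in Mmp13-/-, with overlap. Of 9 odontoblast and pulp markers, 3 were called higher and 3 lower, beside 20.4% and 9.68% of all genes. Their summed level was 7982 to 9327 in WT and 3087 to 3939 in Mmp13-/-. Dspp, Phex and Mmp20 were the genes called higher (1.13, 1.68 and 1.31), and Col1a1, Col1a2 and Nes those called lower (-2.16, -1.26 and -1.21), some of them named after their values were seen. Col1a1 and Col1a2 had the most counts of the list. With the GC correction 1 was called higher and 1 lower, and 1 was called higher without WT sample 4 or WT sample 5. Skeletal muscle markers, which are foreign to pulp, were abundant in every sample, and 6 of 7 were called lower, beside 9.68% of all genes. Their sums were 13970 to 16330 in WT and 2725 to 6178 in Mmp13-/-, and 2 were called lower with the GC correction. The part of these differences in the change of the granule genes was not tested.

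**Figure D5:**
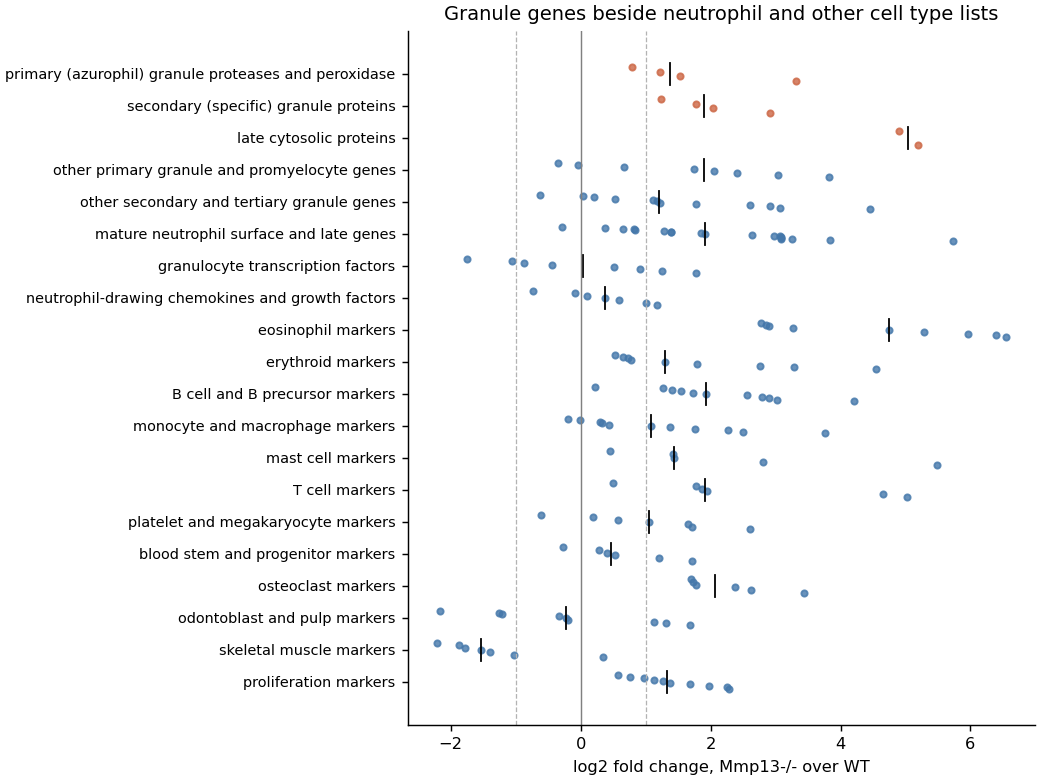
Log2 fold change of every tested gene on the lists, 1 row per list, with the members in orange, other lists in blue and a black bar at the list median. Dashed lines mark 2-fold in either direction, and the medians run from -1.53 for skeletal muscle markers to 5.04 for the cytosolic members.

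Genes with a profile closest to the members were found by the root mean square distance, over the 6 samples, between each gene's centred log2 values and the median of the 10 members. Among 24524 other genes the 5 closest were Itgb2l (0.12), Myb (0.13), Trem3 (0.14), Pglyrp1 (0.17) and Hist1h2ai (0.17). Pglyrp1 is a bactericidal protein of neutrophil granules, Trem3 a receptor of myeloid cells and Hist1h2ai a replication-dependent histone, which has near-identical copies among which reads can be split. Their log2 fold changes lay between 1.68 for Hist1h2ai and 2.23 for Trem3. The distance includes the difference between the genotypes, so fold changes near the median of the members follow from the search and are not a result. The member nearest to the common profile was Lcn2 (0.11), followed by Ngp (0.13), and the farthest was S100a9 (1.61).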

How the data were processed

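Pulp RNA of 3 WT and 3 Mmp13-/- samples, grouped by the genotype in their labels, was analysed from a single table of 53342 genes. It holds estimated counts per gene, which the authors made from aligned reads in Strand NGS, and log2 values, which the authors made from those counts with median-of-ratios scaling, a floor and centring on each gene's median. The log2 values were recomputed from the counts and differed by at most 2.35e-06. The submitters' processing notes name mm10 and DESeq, and the aligner, its settings and the annotation release are not given in the sources used here.

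After rounding, the estimated counts entered edgeR 4.0.16 under R 4.3.3 (quasi-likelihood test, TMM factors, filter on low counts by genotype, no covariates, Benjamini-Hochberg adjustment over the 24534 genes tested). A gene was called at an adjusted p under 0.05 and a change over 2-fold. Normalized counts were obtained by dividing through the effective library size (total times TMM factor) and multiplying by the mean library total over samples. Exon length, as the union of all annotated exons of a gene, and GC content came from GENCODE M21, and 0.197% of genes had no match. In simulated counts over 21520 genes, edgeR with TMM factors gave back 79% of 2-fold and 100% of 4-fold changes. Of the calls in the simulated counts, 5.291% were false. These rates describe the simulated counts only and are not read as the power or error rate for the pulp samples. Between samples of 1 genotype the chi-square per degree of freedom was 27.66 or more, so no library was a copy of another, and the SD over samples is the error throughout. With 3 counts as the floor, the depth allowed levels down to 0.1391 CPM or lower.

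The members and all gene lists were chosen with earlier results of these data known. Besides the members, genes were named for their role or as the 3 most abundant of a list, and some of these are given only in the counts of their list. Genes named for an exon overlap were added after their values were seen. Alternatives were RLE and upper-quartile factors, total counts, factors without the 50 most abundant genes, no filter, at least 10 counts in every sample, DESeq2 1.42.0, limma 3.58.1 on the deposited log2 values, an unmoderated test per gene with equal variances and Storey's q, a GC correction, subtraction of background reads and leaving out each sample.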

Additional observations from a re-analysis of the deposited data

How the results depend on the processing

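Of 170 recomputed fold changes of the members (17 alternatives each), 160 kept their direction and side of the threshold, 7 were no longer called, 3 became called and none reversed. The calls lost outside the leave-one-out fits were Mpo with DESeq2 (1.19) and limma (1.24), Ltf with limma (1.17) and Ngp with limma (1.67), and Prtn3 became called with the GC correction (1.97); the cause was not tested. The number of members called ran from 6 with limma to 10 with the GC correction, and from 7 to 10 when a sample was left out. Leaving out each sample in turn moved the log2 fold change of Mpo between 0.82 and 1.49, of Ltf between 0.89 and 1.52 and of Prtn3 between 0.47 and 1.11. The class medians moved beyond the sample spread with the GC correction only, to 2.32 for the primary and 2.47 for the secondary genes. The number of all genes called was 7381 and became 14325 without a filter, 4666 with at least 10 counts in every sample, 11879 with DESeq2 and 15407 with the unmoderated test, where the number of genes tested also differed. For the other lists, 531 of 578 counts stayed within 1.5 times and 47 did not. Depth limits the scarce genes, such as Csf3, Cxcl2 and Ctsg in WT. No paired analysis was possible because the genotypes share only the replicate number 2.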
